A study of Mus musculus with 6 samples.

Results

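The 36 genes described here mark the cells of brain blood vessels. They comprise 9 genes of barrier endothelium, 7 endothelial surface and junction genes, 4 endothelial receptor kinases, 3 endothelial transcription factors, Plvap of fenestrated endothelium, 8 pericyte genes, 3 smooth muscle genes and the matrix gene Fn1. They were taken by gene symbol from the 24015 genes counted in RNA-seq libraries of the mouse arcuate nucleus (ARC), and all 36 had a row. There were 3 control libraries (Esr1fl/fl) and 3 mutant libraries (Esr1fl/fl;Nkx2-1-Cre), all from adult females. The labels give the background as mixed CD-1, 129P2 and C57BL/6. The study's methods give an age of 11 to 20 weeks. All animals carried the floxed allele of Esr1, the estrogen receptor alpha gene. Only the mutants carried the Cre, which is driven by Nkx2-1. The ARC was cut out by hand, so each library pooled every cell type in the piece. The comparison asked how loss of the receptor in cells of the Nkx2-1 lineage changed ARC transcripts.

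Endothelial cells line the vessel, and pericytes and smooth muscle cells, together called mural cells, wrap around it. Over most of the brain the endothelium forms a barrier: tight junctions seal the cells together, and transporters carry glucose, thyroid hormone and other solutes across. Beside the ARC lies the median eminence, where the capillaries are fenestrated instead. There Plvap forms the diaphragms of the pores, and blood and tissue exchange hormones freely. VEGF and angiopoietin signals reach endothelium through Kdr, Flt1, Tek and Tie1, and endothelial PDGF recruits pericytes through Pdgfrb.

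Esr1 itself stood at 64.5, 57.5 and 48.5 CPM (read counts scaled to the size of the library) in control replicates 1 to 3 and at 11.8, 9.55 and 7.06 CPM in mutant replicates 1 to 3, and the groups did not overlap. Its log2 fold change was -2.59 ± 0.18 (SE; n = 3 per group; adjusted p = 0.000884, edgeR's quasi-likelihood test with Benjamini-Hochberg adjustment). This value averages over all cells of the tissue and does not show whether the gene was recombined in vascular cells. Libraries held 11792440 to 17877137 counts. The summed level of 5 markers of ARC neurons lay between 432 and 697 CPM in all 6 libraries. The labels number the replicates but do not say that each came from a separate animal, so p-values measure the spread between these samples.

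Control replicate 2 stood apart from the other 5 libraries. The summed level of 8 pituitary markers was 6.11 CPM in it and 469 to 768 CPM in the others. Cga, the hormone alpha subunit made in the pituitary, including the pars tuberalis that lies under the median eminence, stood at 3.26 CPM in it and at 372 to 582 CPM elsewhere. The 6 tanycyte markers summed to 792 CPM there, to 1260 and 1000 CPM in control replicates 1 and 3 and to 1280 to 1500 CPM in mutants. The summed level of 6 astrocyte markers was highest in this library, at 6340 CPM against 3640 to 5770 CPM. Fold changes without this library are therefore given beside many of those it moved, and for all 36 genes in the plot of fold changes.

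No vascular gene passed the threshold between genotypes. All 36 genes passed the filter on low counts, and 0 of them had an adjusted p under 0.05 in edgeR's quasi-likelihood test, where 0.118% of the 15236 genes tested did. limma voom also called 0, and DESeq2 called 2 genes, Ly6a and Foxq1, where it called 1.27% of all genes it tested. At an unadjusted p under 0.05, edgeR gave 5 genes, all higher in mutants: Ly6a, Foxq1, Cdh5, Slco1c1 and Sox18. This is 13.9% of the 36, against 8.85% of all genes tested, or 4.84% counting only those higher in mutants. The mutant and control values of 5 genes did not overlap (Ly6a, Foxq1, Cdh5, Emcn and Sox18), 13.9% of the 36 against 15.8% of all genes. In all 5 the mutants were the higher group, as in 7.88% of all genes. The log2 fold change was positive for 29 of the 36 genes, with a median of 0.21, and the median over all genes tested was 0.0036. Without control replicate 2 the median of the 36 dropped to 0.06, and 4 genes had an unadjusted p under 0.05 (Ly6a, Foxq1, Cdh5 and Slco1c1), all higher in mutants, against 7.73% of all genes in either direction and 4.43% in that direction. In such bulk tissue, fewer cells of a type and less RNA per cell cannot be told apart.

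**Figure D1:**
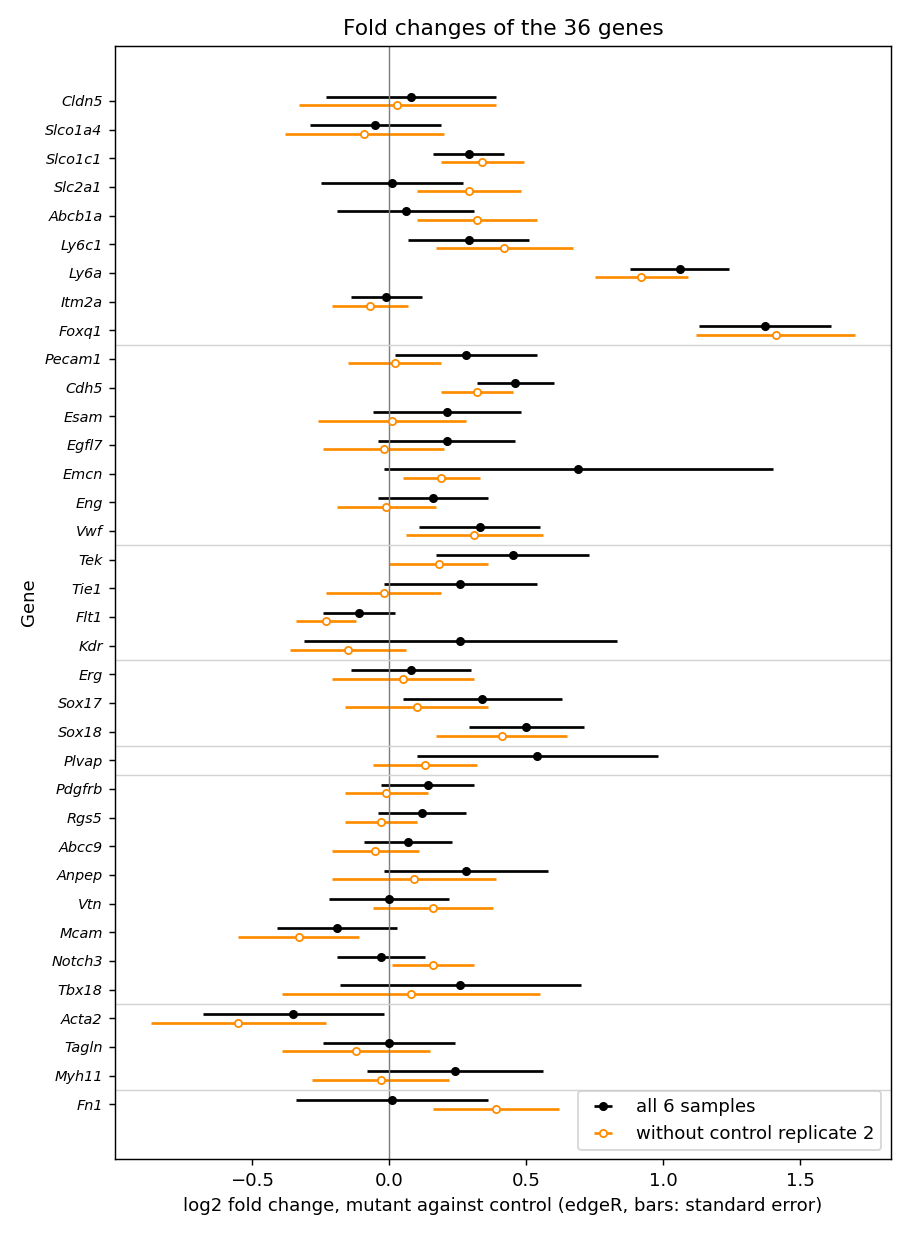
Log2 fold change of each of the 36 genes, mutant against control, with its standard error from edgeR, over all 6 samples (filled black points) and without control replicate 2 (open orange points). Horizontal lines separate the roles. Ly6a and Foxq1 lie farthest from 0 in both fits, and the points of Emcn, Plvap and Kdr shift to the left without control replicate 2.

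Per kilobase of exon, the levels of the 36 genes spanned from 0.363 to 42.7 CPM per kb in controls, with a median of 2.92. Slc2a1, the glucose transporter of barrier endothelium, which astrocytes also express, was the highest at 42.7 CPM per kb. It was followed by Ly6a at 22.6, by Itm2a, a membrane protein gene of brain endothelium, at 19.8, and by the pericyte gene Rgs5 at 15 CPM per kb. Plvap, at 3.21 CPM per kb, lay beside Kdr at 3.67 and Pecam1 at 3.09 CPM per kb in that order. Cldn5, the claudin of the endothelial tight junction, reached 1.5 CPM per kb, and Vwf, which encodes the clotting protein von Willebrand factor, was lowest at 0.363 CPM per kb. Of the 35 pairs of neighbours in this order, 29 lay closer together than the larger of their SDs (n = 3), among them Kdr, Plvap and Pecam1.

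**Figure D2:**
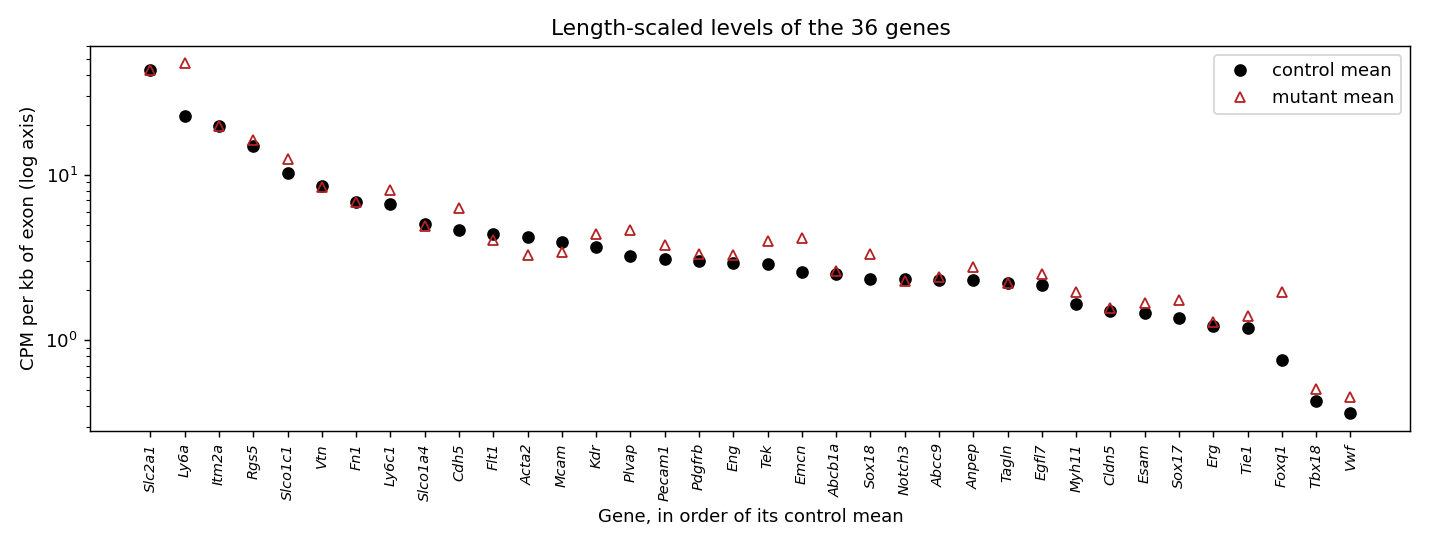
Mean level of each of the 36 genes in CPM per kb of exon, on a log axis, in controls (filled circles, n = 3) and mutants (open triangles, n = 3), ordered by the control mean. Slc2a1 stood at 42.7 in controls and Vwf at 0.363, and the largest gaps between the symbols are those of Ly6a and Foxq1.

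Among the 9 barrier genes, Ly6a and Foxq1 had the lowest p-values of all 36. Ly6a encodes a surface antigen of brain endothelium, also known as Sca-1, that is induced by interferon. Controls measured 20, 14.9 and 20.6 CPM against 48.6, 34.0 and 33.2 CPM for the mutants, so that every mutant lay above every control. The log2 fold change was 1.06 ± 0.18 (SE, n = 3 per group), with an adjusted p of 0.0692 in edgeR's quasi-likelihood test and of 2.09e-05 in DESeq2. Without control replicate 2 it was 0.92 ± 0.17, with an adjusted p of 0.0658 in edgeR.

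Foxq1 encodes a forkhead transcription factor enriched in brain endothelium. The controls held 1.74, 2.21 and 2.44 CPM and the mutants 5.03, 5.09 and 6.46 CPM, again without overlap. Its log2 fold change was 1.37 ± 0.24 (SE, n = 3 per group), with an adjusted p of 0.0691 in edgeR's quasi-likelihood test and of 0.00431 in DESeq2. It was 1.41 ± 0.29 without control replicate 2. In the GENCODE gene models, 41.6% of the exon bases of Foxq1 are shared with A530084C06Rik on the opposite strand. The strand setting of the counting is not given in the sources used here, so reads of the pair cannot be told apart.

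The summed levels of markers of some other cells were also apart. The 5 oligodendrocyte markers summed to 543 to 1030 CPM in controls and to 1340 to 1510 CPM in mutants, and 5 of the 5 had an unadjusted edgeR p under 0.05 but 0 an adjusted one. The 5 microglia markers summed to 132 to 147 CPM in controls and to 170 to 181 CPM in mutants, where 2 of the 5 had an unadjusted p under 0.05 and 0 an adjusted one. The 6 tanycyte markers summed to 792 to 1260 CPM in controls and to 1280 to 1500 CPM in mutants. Of these 6, 2 had an unadjusted edgeR p under 0.05 and 0 an adjusted one. The part of these cells in the values of the vascular genes, Ly6a and Foxq1 among them, was not tested.

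Slco1c1 carries thyroid hormone across the barrier. It stood at 27.8, 29.7 and 26.0 CPM in controls and at 29.0, 33.2 and 40.1 CPM in mutants, and mutant replicate 1 lay within the control range. Its log2 fold change was 0.29 ± 0.13 (SE; unadjusted p = 0.0469, adjusted p = 0.559 in edgeR).

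**Figure D3:**
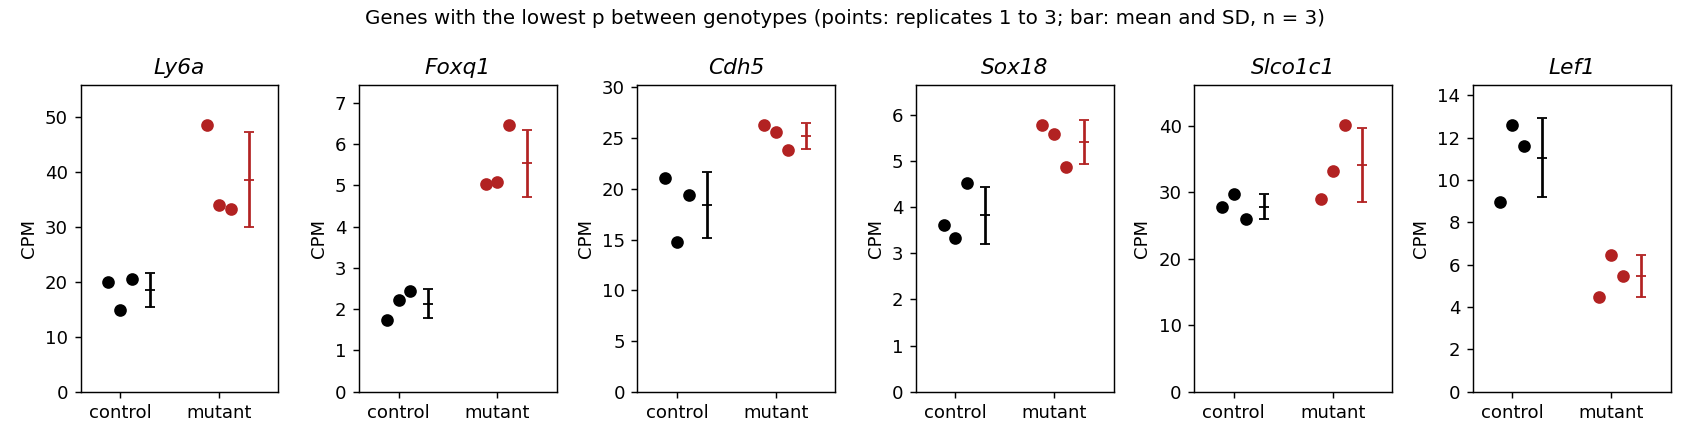
Level in CPM of the 5 vascular genes with an unadjusted p under 0.05 and of the Wnt pathway gene Lef1, in 3 controls (black) and 3 mutants (red), with the mean and SD beside the points. The groups of Ly6a, Foxq1, Cdh5, Sox18 and Lef1 do not overlap, and those of Slco1c1 do.

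The tight junction gene Cldn5 did not separate the genotypes. It was measured at 2.14, 1.98 and 2.22 CPM in controls and at 1.49, 2.76 and 2.40 CPM in mutants, with mutant replicate 1 the lowest and mutant replicate 2 the highest of the 6. The log2 fold change was 0.08 ± 0.31 (SE, adjusted p = 0.973 in edgeR). Slc2a1 stood at 95.4, 165 and 105 CPM in controls and at 93.1, 124 and 150 CPM in mutants, for a log2 fold change of 0.01 ± 0.26, or 0.29 ± 0.19 without control replicate 2. Control replicate 2, which was also highest in the astrocyte sum, was the highest for Slc2a1. The drug efflux pump gene Abcb1a, the organic anion transporter gene Slco1a4, the surface antigen gene Ly6c1 and Itm2a had log2 fold changes of 0.06, -0.05, 0.29 and -0.01, and the groups of each overlapped. Those of Abcb1a and Ly6c1 were 0.32 and 0.42 without control replicate 2. Genes of similar sequence can share reads with some of these genes, which was not tested. Of those looked up, Ly6c2 stood at no more than 0.133 CPM in any library. Abcb1b stood at 1.54 to 3.08 CPM in controls and at 3.02 to 5.45 CPM in mutants. Its log2 fold change was 0.80 ± 0.35 (SE, adjusted p = 0.551 in edgeR).

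Averaged over the 9 barrier genes, log2 CPM was 3.70, 3.85 and 3.75 in controls and 3.92, 4.02 and 4.32 in mutants. The mean difference was 0.32, whereas the same difference computed from the median barrier gene of each sample was -0.06. Without control replicate 2 the mean difference was 0.36. The median of the 9 edgeR log2 fold changes was 0.08 over all samples and 0.32 without that library. The mean includes Ly6a and Foxq1, the widest-moving members.

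Of the 7 endothelial surface and junction genes, 6 were lowest in control replicate 2, and Emcn was lowest by the widest margin. Emcn, the gene of endomucin, a sialomucin of capillary and venous endothelium, stood at 21.8, 2.79 and 17.5 CPM in controls and at 22.1, 22.1 and 23.0 CPM in mutants. Control replicate 2 held 0.126 times the median of the other 5 libraries, and the other controls lay below the mutants too, control replicate 1 by a small margin. The log2 fold change of Emcn was 0.69 ± 0.71 (SE) over all samples and 0.19 ± 0.14 without control replicate 2. Pecam1, the gene of the adhesion molecule CD31, showed 18.6, 8.14 and 13.3 CPM in controls and 17.7, 15.4 and 15.4 CPM in mutants, again lowest in control replicate 2. The log2 fold change of Pecam1 was 0.28 ± 0.26 (SE), or 0.02 ± 0.17 without that library. Cdh5, the gene of VE-cadherin of the adherens junction, stood at 21.1, 14.8 and 19.4 CPM in controls and at 26.3, 25.6 and 23.8 CPM in mutants. Its groups did not overlap, and its log2 fold change was 0.46 ± 0.14 (SE; unadjusted p = 0.00925, adjusted p = 0.352 in edgeR), or 0.32 ± 0.13 without control replicate 2. Vwf differed from these, with 5.70, 5.64 and 6.17 CPM in controls and 5.53, 9.61 and 6.79 CPM in mutants. Its highest value came from mutant replicate 2, and control replicate 2 lay close to the other controls. Esam, Egfl7 and Eng, which encode a junction molecule, a secreted endothelial protein and a TGF-beta coreceptor, had log2 fold changes of 0.21, 0.21 and 0.16 with overlapping groups, and of 0.01, -0.02 and -0.01 without control replicate 2. The colour map of the 36 genes by sample shows these values.

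**Figure D4:**
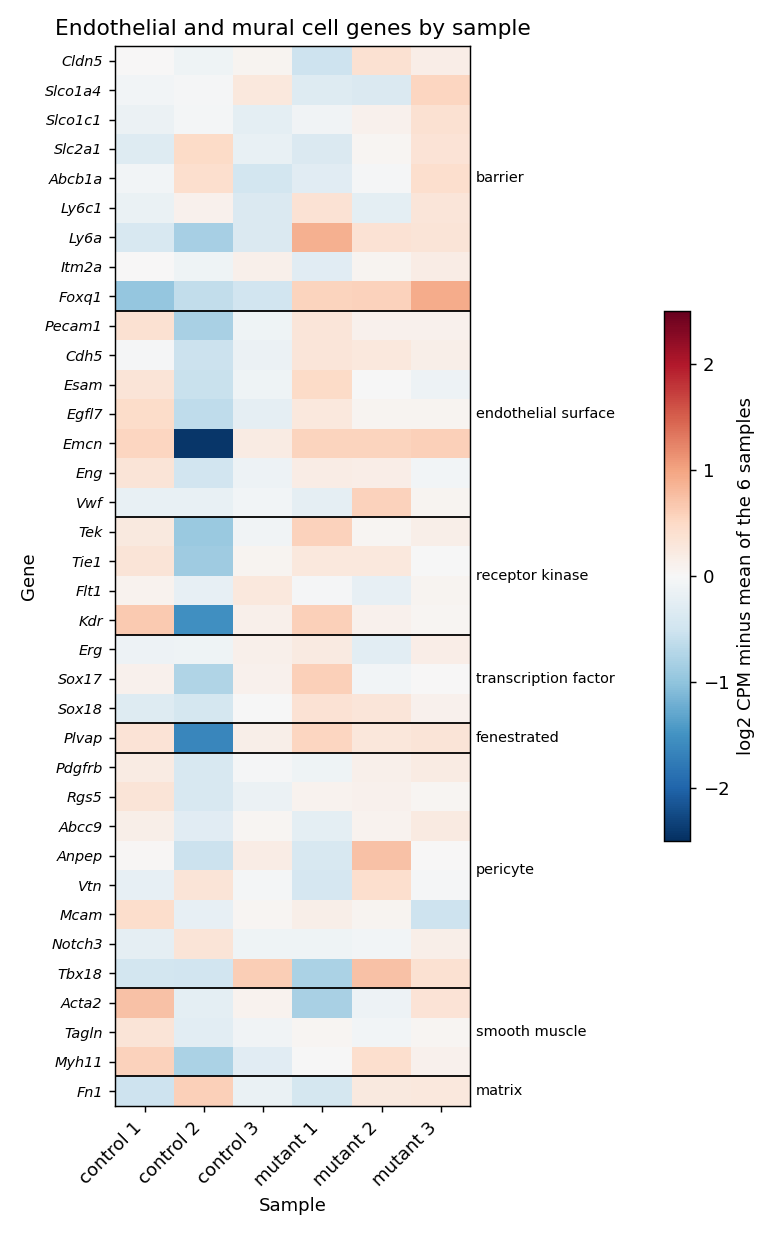
Log2 CPM of each of the 36 genes in each of the 6 samples, minus that gene's mean over the samples, with blue below and red above the mean and black lines between roles. Control replicate 2 shows the deepest blue, in Emcn, Kdr and Plvap, while Fn1 is red there and the barrier genes other than Ly6a and Foxq1 are pale or red.

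The receptor kinases split in the same library. Kdr, the main signalling receptor for VEGF-A, stood at 41.9, 9.13 and 29.0 CPM in controls and at 39.9, 28.5 and 27.5 CPM in mutants. Flt1, which binds the same ligand and also acts as a decoy, stood at 51.9, 42.3 and 58.3 CPM in controls and at 47.9, 42.2 and 51.0 CPM in mutants. Control replicate 2 held 0.315 times the median of the other 5 libraries for Kdr and 0.83 times for Flt1. Within each library, log2 Kdr minus log2 Flt1 was -2.20 in control replicate 2 and between -1.01 and -0.26 in the others. The angiopoietin receptor gene Tek and its partner Tie1 were at 0.47 and 0.452 times the median of the other libraries there. The difference between these partners held in that library: log2 Tie1 minus log2 Tek was -1.25 in it and lay between -1.62 and -1.10 elsewhere. Between genotypes, the log2 fold changes were 0.26 ± 0.57 for Kdr, -0.11 ± 0.13 for Flt1, 0.45 ± 0.28 for Tek and 0.26 ± 0.28 for Tie1 (SE). Without control replicate 2 that of Kdr turned to -0.15 ± 0.21 and that of Tie1 to -0.02 ± 0.21, while that of Tek was 0.18 ± 0.18 and that of Flt1 -0.23 ± 0.11.

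The RefSeq start regions of Kdr and Emcn, which were low in control replicate 2, are shown beside those of Flt1 and Cldn5, which lay nearer to the other libraries. Each is the 250 bases before the start in GRCm38.p6, printed 5′ to 3′ on the gene's strand: chr5:75978456-75978705 (minus) for Kdr, chr5:147726012-147726261 (minus) for Flt1, chr3:137340828-137341077 (plus) for Emcn and chr16:18776597-18776846 (plus) for Cldn5. Capitals mark the letters AGGAAG or CGGAAG, which ETS factors such as Erg bind, and GGTCA, the half-site of the estrogen response element, each searched on both strands.
Kdr: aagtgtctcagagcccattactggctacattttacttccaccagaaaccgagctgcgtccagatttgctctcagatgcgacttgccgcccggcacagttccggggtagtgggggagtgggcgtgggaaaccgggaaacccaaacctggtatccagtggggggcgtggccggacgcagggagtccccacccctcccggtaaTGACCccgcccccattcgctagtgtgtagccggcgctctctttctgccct
Flt1: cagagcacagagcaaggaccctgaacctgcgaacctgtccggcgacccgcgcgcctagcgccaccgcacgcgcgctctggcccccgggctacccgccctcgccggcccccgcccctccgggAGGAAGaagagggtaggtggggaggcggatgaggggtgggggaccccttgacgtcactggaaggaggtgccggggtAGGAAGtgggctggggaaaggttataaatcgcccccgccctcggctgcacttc
Emcn: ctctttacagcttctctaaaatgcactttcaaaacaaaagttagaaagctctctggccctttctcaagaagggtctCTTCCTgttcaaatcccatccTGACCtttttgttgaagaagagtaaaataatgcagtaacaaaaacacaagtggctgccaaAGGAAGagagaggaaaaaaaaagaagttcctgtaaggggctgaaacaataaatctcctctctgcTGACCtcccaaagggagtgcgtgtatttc
Cldn5: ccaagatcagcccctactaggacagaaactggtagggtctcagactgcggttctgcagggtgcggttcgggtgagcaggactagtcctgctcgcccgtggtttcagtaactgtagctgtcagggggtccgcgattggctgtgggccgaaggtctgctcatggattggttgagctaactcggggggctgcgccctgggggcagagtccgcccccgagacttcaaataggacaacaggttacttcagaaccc
Emcn and Flt1 each held 2 ETS matches, while Kdr and Cldn5 held 0. GGTCA was found in Kdr (1 match) and Emcn (2 matches) and not in Flt1 or Cldn5. Either ETS form was present in 39.2% of all 32851 start regions and in 46.4% of the 28 windows of the 23 vascular genes with an entry, and GGTCA in 35.2% and 39.3%. These matches are letters in a sequence and say nothing of binding. Ly6a, Foxq1, Pecam1, Cdh5, Esam, Vwf, Sox17, Sox18, Plvap, Pdgfrb, Tagln, Myh11 and Fn1 had no entry.

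Of the 3 transcription factor genes, Sox18, a SoxF gene of vascular and lymphatic endothelium, stood at 3.62, 3.32 and 4.52 CPM in controls and at 5.78, 5.59 and 4.86 CPM in mutants. The groups lay side by side without overlap, the lowest mutant just above the highest control. The log2 fold change was 0.50 ± 0.21 (SE; unadjusted p = 0.0395, adjusted p = 0.531 in edgeR), and without control replicate 2 it was 0.41 ± 0.24 with an unadjusted edgeR p of 0.117. Its relative Sox17 and the ETS factor gene Erg had log2 fold changes of 0.34 and 0.08, and their groups overlapped. That of Sox17 was 0.10 without control replicate 2.

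Plvap, the fenestral diaphragm gene, stood at 9.11, 2.33 and 7.96 CPM in controls and at 10.4, 8.80 and 8.93 CPM in mutants. Control replicate 2 held 0.261 times the median of the other 5 libraries. The other controls lay on either side of the lowest mutant. The log2 fold change was 0.54 ± 0.44 (SE, adjusted p = 0.791 in edgeR) over all samples and 0.13 ± 0.19 (adjusted p = 0.925) without that library. Set against the mean of the barrier genes within each library, log2 Plvap was lower by a wider margin in control replicate 2 than in any other. The difference was -2.55 there and lay between -1.14 and -0.49 in the other 5. Emcn followed Plvap in this respect, at -2.30 in control replicate 2 and between 0.22 and 0.76 elsewhere. Between genotypes, log2 Plvap minus the barrier mean was on average -1.26 in controls and -0.84 in mutants. It was thus less negative in mutants, by 0.41 with all samples. Without control replicate 2 this change turned to -0.23, while the log2 fold change of Plvap itself was 0.13. The barrier mean subtracted here includes Ly6a and Foxq1. With the median barrier gene in its place the change was 0.8 over all samples.

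The same library was also the lowest in other genes of endothelium outside the barrier. Esm1, which marks endothelial tip cells and fenestrated capillaries, stood at 16.6, 1.51 and 11.2 CPM in controls and at 11.7, 8.73 and 9.99 CPM in mutants. The summed level of Esm1, Gpihbp1, Cd300lg and Aplnr was 2.73 CPM in control replicate 2 and at least 15.7 CPM in the others. Figf, the VEGF-D gene, stood at 1.75 CPM there and at 29.0 to 66.7 CPM elsewhere. The pituitary sum moved with them, and the part of pituitary or median eminence tissue in these values was not tested.

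Counted over roles, control replicate 2 was the lowest of the 6 libraries for 19 of the 36 genes (52.8%), and for 21.7% of all genes tested. These were 1 of 9 barrier genes, 11 of the 14 other endothelial genes, Plvap and 6 of 11 mural genes. It lay more than 2 times below the median of the other libraries for 7 of the 36 genes (19.4%), against 5.11% of all genes. The 7 were Emcn, Plvap, Kdr, Tie1, Tek, Ly6a and Foxq1. The median of the other 5 libraries was a mutant value for 6 of these genes and a control value for Kdr. For Foxq1, control replicate 2 was not low among controls, at 2.21 CPM against 1.74 and 2.44 CPM. For Ly6a it stood at 14.9 CPM against 20 and 20.6 CPM in the other controls. These counts were made after the values of this library had been seen.

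**Figure D5:**
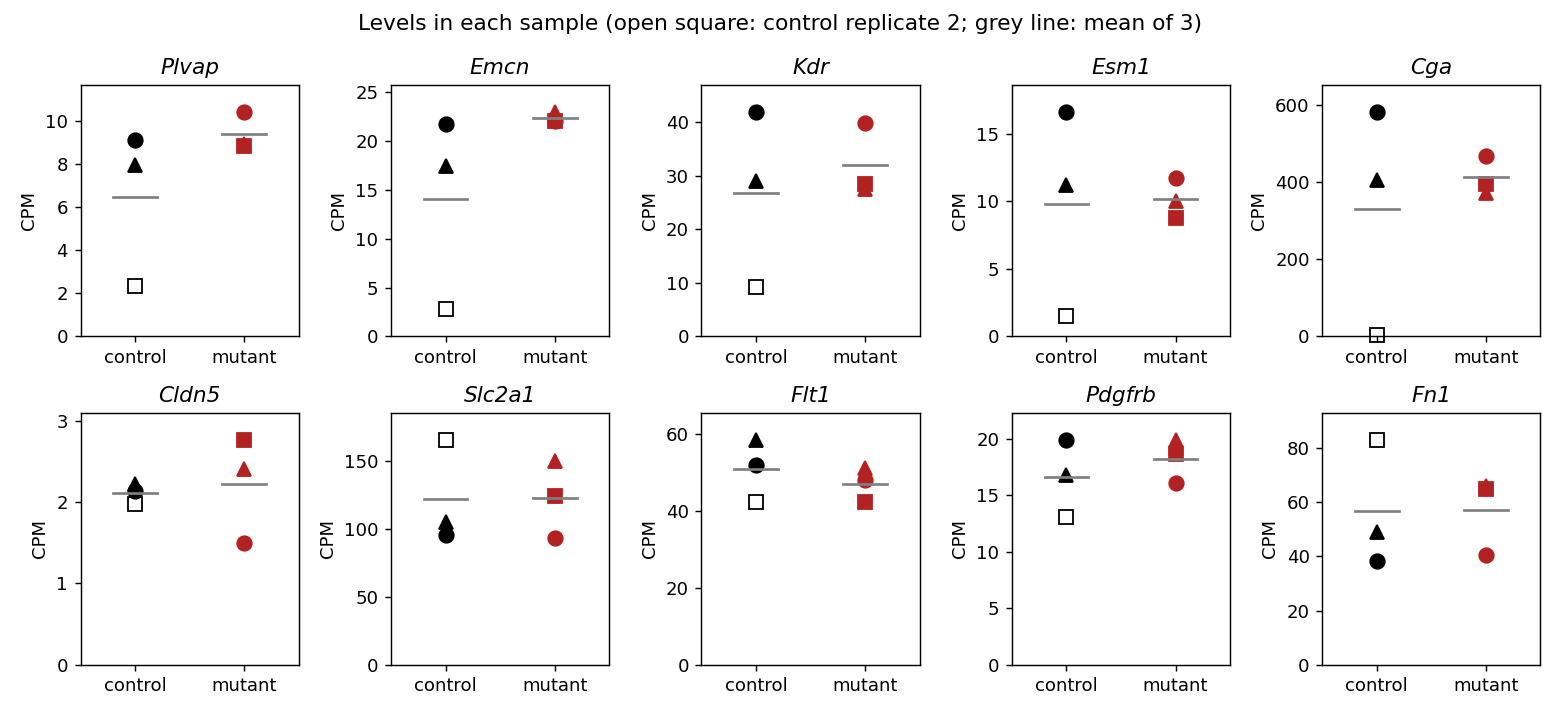
Level in CPM of 10 genes in 3 controls (black) and 3 mutants (red), with circles, squares and triangles for replicates 1, 2 and 3 and a grey line at each mean. Control replicate 2, the open square, is far below the other samples for Plvap, Emcn, Kdr, Esm1 and Cga in the upper row. In the lower row it lies among or above them for Cldn5, Slc2a1 and Fn1. There it is the lowest for Pdgfrb, at 13.1 CPM, and close to the lowest for Flt1, at 42.3 against 42.2 CPM.

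No mural gene separated the genotypes, and 0 of the 11 had an unadjusted edgeR p under 0.05, against 8.85% of all genes. After adjustment edgeR and DESeq2 called 0 of them, against 0.118% and 1.27% of all genes, so that these counts lie near the background. Pdgfrb, the receptor by which PDGF-B holds pericytes on the vessel, stood at 19.9, 13.1 and 16.8 CPM in controls and at 16.1, 18.7 and 19.9 CPM in mutants. Rgs5, a regulator of G protein signalling abundant in pericytes, stood at 87.5, 53.2 and 63.8 CPM in controls and at 74.3, 75.2 and 72.4 CPM in mutants. The mutants were tightly grouped inside the control range. The log2 fold changes were 0.14 ± 0.17 for Pdgfrb and 0.12 ± 0.16 for Rgs5 (SE), and -0.01 ± 0.15 and -0.03 ± 0.13 without control replicate 2. The potassium channel subunit gene Abcc9, the aminopeptidase gene Anpep, the vitronectin gene Vtn, the adhesion molecule gene Mcam, the receptor gene Notch3 and the T-box gene Tbx18 had log2 fold changes from -0.19 (Mcam) to 0.28 (Anpep), all with overlapping groups. Those of Mcam and Anpep were -0.33 and 0.09 without control replicate 2. Averaged over the 8 pericyte genes, log2 CPM was 3.87, 3.64 and 3.90 in controls and 3.61, 4.10 and 3.89 in mutants, a difference of 0.07, or -0.02 without control replicate 2.

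The contractile genes of smooth muscle were highest in control replicate 1. Acta2, smooth muscle actin, stood at 10.5, 5.35 and 6.74 CPM in controls and at 3.63, 5.84 and 8.06 CPM in mutants, with a log2 fold change of -0.35 ± 0.33 (SE), or -0.55 ± 0.32 without control replicate 2. Tagln, transgelin, showed 4.36, 2.91 and 3.30 CPM in controls and 3.63, 3.33 and 3.60 CPM in mutants. Myh11, smooth muscle myosin heavy chain, showed 17.0, 6.57 and 9.32 CPM in controls and 11.3, 15.2 and 12.2 CPM in mutants, for a log2 fold change of 0.24 ± 0.32, or -0.03 ± 0.25 without control replicate 2. Control replicate 2 was the lowest library for Tagln and Myh11 and mutant replicate 1 for Acta2. The mean log2 CPM of the 3 genes was 3.22, 2.27 and 2.60 in controls and 2.45, 2.77 and 2.85 in mutants, a difference of -0.01, or -0.22 without control replicate 2. Vascular fibroblast markers, which such a piece of tissue can also hold, summed to 199 to 419 CPM in controls and 250 to 454 CPM in mutants, with control replicate 2 the lowest.

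Fn1, which encodes the matrix protein fibronectin, was highest in the library where Plvap was lowest. It stood at 38.3, 83.0 and 49.2 CPM in controls and at 40.5, 65.0 and 66.1 CPM in mutants. The groups overlapped, and the log2 fold change was 0.01 ± 0.35 (SE), or 0.39 ± 0.23 without control replicate 2.

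Further genes were read from the same fit: VEGF, PDGF, Notch, TGF-beta and Wnt partners that signal at the vessel, and other barrier, mural and endothelial markers. Of the 69 tested, 0 had an adjusted p under 0.05 in edgeR, DESeq2 called 1 (Lef1), and 6 had an unadjusted edgeR p under 0.05, 8.7% against 8.85% of all genes. Vegfa, the ligand of Kdr and Flt1, stood at 55.3, 34.4 and 46.0 CPM in controls and at 72.5, 56.3 and 55.4 CPM in mutants, the lowest mutant lying almost on the highest control (log2 fold change 0.44 ± 0.18, SE; adjusted p = 0.516 in edgeR). Pdgfa, a PDGF ligand, was at 55.9 to 59.6 CPM in controls and at 47.2 to 53.3 CPM in mutants. Fzd4, the Norrin and Wnt receptor of brain endothelium, was at 11.6 to 20.5 CPM in controls and at 21.5 to 23.1 CPM in mutants. Control replicate 2 was the lowest library for Vegfa and Fzd4. Without it their log2 fold changes were 0.28 and 0.23, with unadjusted edgeR p-values of 0.0766 and 0.114, so that neither kept a p under 0.05. The unadjusted p of Pdgfa was 0.0501 without it. Lef1, a transcription factor of the Wnt pathway that neurons of the hypothalamus also express, stood at 8.98, 12.6 and 11.6 CPM in controls and at 4.46, 6.47 and 5.46 CPM in mutants. Its groups did not overlap, and its log2 fold change was -1.01 ± 0.20 (SE; adjusted p = 0.0895 in edgeR and 0.00574 in DESeq2). Control replicate 2 was the highest library for Lef1. Without it the log2 fold change of Lef1 was -0.91 ± 0.22 (adjusted p = 0.174 in edgeR). The other Wnt targets on the list, Axin2 and Apcdd1, overlapped between groups, at 26.6 to 28.3 against 27.3 to 32.0 CPM and at 5.29 to 7.60 against 4.29 to 7.39 CPM. Of the further barrier genes, the transporter gene Slco2b1 was at 10 to 13.1 CPM in controls and 14.4 to 17.3 CPM in mutants, and the transferrin receptor gene Tfrc at 91.3 to 98.8 and 104 to 130 CPM (log2 fold changes 0.42 and 0.25; adjusted p = 0.417 and 0.48 in edgeR).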

How the data were processed

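The authors deposited 1 table of raw counts per library, with reads counted per gene by HTSeq (version 0.6) after alignment with TopHat2 (version 2.1.0) to mm9, as the submitters' processing notes name them, and the methods write the build as NCBI37/mm10. Libraries were made from cDNA amplified from 50 ng of total RNA. Groups were taken from the labels. Counts were scaled by TMM and tested with edgeR (version 4.0.16, R 4.3.3), genes kept by its default filter (minimum count 10), by robust quasi-likelihood fits and Benjamini-Hochberg adjustment over 15236 genes with a threshold of 0.05. The 6 totals give 3 counts a worth of 0.175 to 0.248 CPM, counting error only. An exact permutation test of 3 against 3 cannot give a two-sided p under 0.1. Exon lengths came from GENCODE models on NCBIM37, and start regions from the RefSeq table for GRCm38.p6. Means of log2 CPM used a prior count of 2. Alternatives were DESeq2 (version 1.42.0), limma voom (version 3.58.1), RLE scaling, other count filters, a replicate block and each replicate left out. The fits were tested on simulated data. Replicates of each group differed by more than sampling noise.

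All 36 genes are named, with values in every sample for those with an unadjusted p under 0.05, those whose groups did not overlap and a fixed set of defining markers. Pathway genes are named at an unadjusted p under 0.05. Axin2, Apcdd1, Esm1, Figf and Cga were chosen after their values were seen. The genes and lists were chosen with earlier results of these data known.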

Additional observations from a re-analysis of the deposited data

How the results depend on the processing

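The count of vascular genes past the threshold was 0 in edgeR with TMM or RLE scaling, with at least 10 counts in every sample, in limma voom and with each replicate left out (0 to 0). It was 2 in DESeq2, 2 with every gene of at least 1 count and 2 with the replicate block, Ly6a and Foxq1 each time. Over all genes the count of 18 became 191 in DESeq2, 106 with every gene of at least 1 count, 123 with the replicate block and 7 to 46 with a replicate left out. The pathway count of 0 became 1 in DESeq2, 1 with every gene of at least 1 count and 1 with the replicate block, and was 0 to 0 with a replicate left out. Vascular genes at an unadjusted p under 0.05 numbered 3 in DESeq2 and 3 to 8 with a replicate left out, the 8 without control replicate 1 and the 3 without mutant replicate 2. The cause of these moves was not tested. The data showed no clear pairing by replicate number: deviations of same-numbered samples correlated at 0.28, 0.05 and 0.00. Of the 3 controls, 1 correlated best with its own number. Correlations among so few samples cannot exclude a pairing.

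The barrier mean of 0.32 became -0.06 with the median gene and ranged from 0.21 to 0.41 with a replicate left out. Signs changed for 21 genes, none with an adjusted p under 0.847. Slc2a1 was -0.003 in DESeq2 and -0.008 with every gene of at least 1 count, Tagln was -0.003 with RLE scaling, -0.007 in DESeq2 and -0.012 with every gene of at least 1 count, Fn1 was -0.003 with every gene of at least 1 count and Vtn was 0.001 with at least 10 counts in every sample. With 1 replicate left out, the log2 fold change ranged from -0.11 to 0.29 for Cldn5, -0.4 to 0.11 for Slco1a4, -0.17 to 0.29 for Slc2a1, -0.16 to 0.32 for Abcb1a, -0.12 to 0.11 for Itm2a, -0.017 to 0.55 for Egfl7, -0.014 to 0.4 for Eng, -0.025 to 0.52 for Tie1, -0.15 to 0.76 for Kdr, -0.004 to 0.22 for Erg, -0.008 to 0.29 for Pdgfrb, -0.035 to 0.34 for Rgs5, -0.047 to 0.19 for Abcc9, -0.097 to 0.5 for Anpep, -0.25 to 0.17 for Vtn, -0.33 to 0.003 for Mcam, -0.14 to 0.16 for Notch3, -0.068 to 0.7 for Tbx18, -0.12 to 0.18 for Tagln, -0.027 to 0.71 for Myh11 and -0.21 to 0.39 for Fn1. That of Ly6a ranged from 0.86 to 1.16 (adjusted p 0.0658 to 0.21 in edgeR) and that of Foxq1 from 1.25 to 1.48 (adjusted p 0.079 to 0.262). The difference of Plvap from the barrier genes ranged from -0.23 to 0.8, the low end without control replicate 2. Every vascular gene had at least 14 counts in every library.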
